A study of Mus musculus with 8 samples.

Results

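Ticam1 knockout and wild-type mouse embryonic fibroblasts (MEFs, cultured connective tissue cells taken from embryos) were compared after transfection of the bacterial second messenger c-di-GMP. The comparison used the 4 of 8 arrays whose titles name the c-di-GMP treatment, 2 from TICAM knockout MEFs and 2 from WT MEFs. The labels name the deleted gene only as TICAM, which is read here as Ticam1, although a related gene, Ticam2, exists. The other 4 arrays held the same genotypes given DMSO. All cells had c-di-GMP at a final 8 µg/ml, or as much DMSO, with a lipofection reagent for 30 min, and total RNA was taken 4 h after transfection, so c-di-GMP knockout and wild-type cells shared everything but genotype as far as the labels say. Which part of the gene was deleted, and whether each genotype stands for 1 clone, 1 embryo or several, is not stated in the labels. Nothing says that replicates were separate cultures either, so the p-values rest on how far these arrays differ from each other, and that spread may be technical alone.

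Ticam1 encodes TRIF, the adaptor through which Toll-like receptors for double-stranded RNA and for endotoxin switch on interferon and inflammatory genes. c-di-GMP takes another route: it binds STING on the endoplasmic reticulum, STING engages the kinase TBK1, and TBK1 activates the transcription factor IRF3, which induces interferon beta. Secreted interferon then signals through the kinases JAK1 and TYK2 and a complex of transcription factors that includes IRF9 to raise the interferon-stimulated genes, whose promoters often hold an interferon-stimulated response element (ISRE).

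RNA was measured on single-colour Illumina bead arrays. On the compared arrays the mean signal was 576.8 and 648.9 in knockout cells and 252.6 and 640.3 in wild-type cells, and 11254 to 11560 of 25697 probes were detected, meaning a detection p under 0.05. Across probes the knockout arrays correlated with each other at 0.993 and the wild-type arrays at 0.984, while knockout and wild-type arrays correlated at 0.918 to 0.929. The knockout DMSO array of replicate 2 carried little signal (6468 probes detected) and was left out, which leaves 1 knockout DMSO array whose spread is taken from the other groups. Values below are normalized log2 intensities, differences are knockout minus wild type, and each is followed by the standard error (SE) of the fit. Ticam1 itself read near background and checks no label. Its tested probe had signals of 124.6 and 157.5 in knockout cells and 90.7 and 157.2 in wild-type cells under c-di-GMP, detected on 1 of 2 arrays each, with a log2 difference of -0.17 ± 0.22 (adjusted p = 0.564).

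The cells carried fibroblast transcripts in both genotypes. Of 20 fibroblast identity genes 18 passed the detection filter. Of these 8 were lower (44.4%) and 6 higher (33.3%) in knockout cells, beside 22.4% and 26.0% of all genes tested. Vim, which encodes the intermediate filament vimentin, read 13.04 and 12.92 in knockout and 12.76 and 12.67 in wild-type cells (0.27 ± 0.15, adjusted p = 0.19). The mesenchymal transcription factor gene Prrx1 differed by -0.11 ± 0.21 (adjusted p = 0.696). Pdgfra, the receptor for platelet-derived growth factor, was higher in knockout cells by 3.06 ± 0.18 (adjusted p = 3.27e-05), and the surface marker gene Thy1 by 1.43 ± 0.18 (adjusted p = 0.000733), while Col1a1 was lower by 2.15 on the log2 scale (SE 0.24, adjusted p = 0.000513). Postn was detected on at most 1 of the 4 arrays. Individual fibroblast markers thus stood at different levels in the genotypes, in both directions, as did a large share of all genes.

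The genotypes differed at a large share of all genes. Of 8842 genes tested in limma, 4280 (48.4%) had an adjusted p under 0.05, 1985 lower (22.4%) and 2295 higher (26.0%) in knockout cells. The lower genes included the larger fitted differences. Of them 226 were over 8-fold apart and 52 over 32-fold, against 55 and 5 of the higher genes. These counts take undetected readings as they stand, so for genes undetected in 1 genotype the fold has no exact size. Irf7, counted at a fitted 35.8-fold, can be given only as at least 21.3-fold lower. Knockout and wild-type arrays did not overlap for any of the 4280, and they did not overlap for 74.4% of all genes tested. Some called genes were seen in 1 genotype alone, since 422 of the lower genes were undetected on both knockout arrays and 310 of the higher genes on both wild-type arrays. Quantile normalization left the median difference of all genes at 0.11, and median scaling put it at 0.33. Under median scaling 1168 genes were lower and 2308 higher, so the share of lower genes among those called was 33.6% there against 46.4%. In RNA from many cells, fewer cells of a type and less RNA per cell cannot be told apart.

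**Figure D1:**
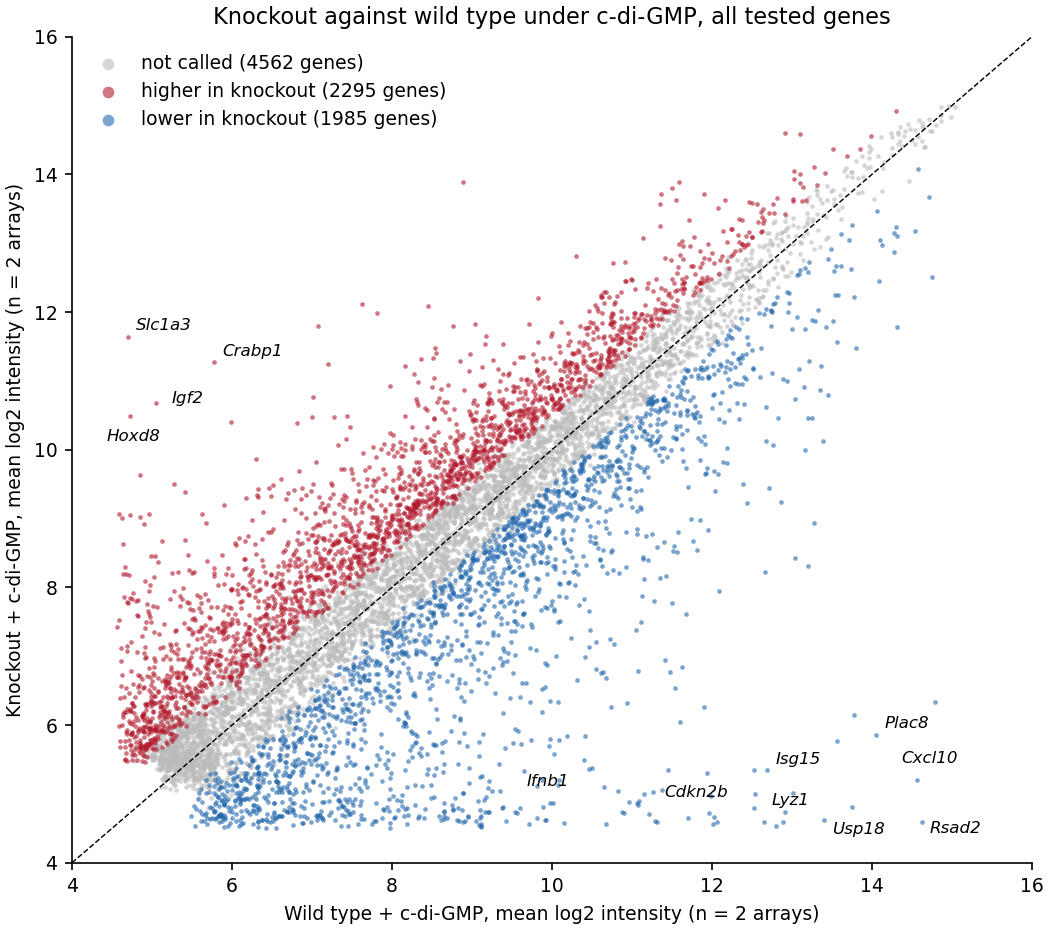
Mean log2 intensity of every tested gene in knockout cells (vertical axis, n = 2 arrays) against wild-type cells (horizontal axis, n = 2 arrays) under c-di-GMP, with the dashed line at equality. The 1985 lower genes reach the background floor of the knockout arrays at the bottom right, led by Rsad2 and Cxcl10, and the 2295 higher genes lie above the line, with Slc1a3 farthest from it.

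Interferon-stimulated and GTPase genes were among the largest differences. By fitted values, they made up 8 of the 15 lower genes farthest apart, and 24 of the 52 over 32-fold apart. Rsad2, which encodes the antiviral enzyme viperin, read 4.58 and 4.60 in knockout cells and 14.56 and 14.69 in wild-type cells, and it was not detected on either knockout array. Where every array of a group was undetected, the ratio is a bound. It sets the brighter group's mean against a floor for the dimmer group, which is on each array the lowest signal of any detected probe, or the gene's reading if that is higher. Such a bound holds for the tested probe, and a gene's other detected probes can give smaller differences. For Rsad2 the bound was at least 596-fold lower in knockout cells (adjusted p = 5.92e-07). Cxcl10, a chemokine that attracts T cells, read 4.98 and 5.42 in knockout and 14.65 and 14.48 in wild-type cells, at least 572-fold lower (adjusted p = 1.31e-06). Usp18, the protease that removes ISG15 and damps interferon receptor signalling, was at least 255-fold lower, and Ifit3b, of the RNA-binding IFIT family, at least 325-fold. Ifit3 was detected in both genotypes, at 6.50 and 6.18 in knockout and 14.80 and 14.77 in wild-type cells (-8.45 ± 0.17, adjusted p = 5.92e-07). Oasl2, of the oligoadenylate synthetase family, was at least 179-fold lower. Cmpk2, a mitochondrial nucleotide kinase gene next to Rsad2, was at least 183-fold lower, and Isg15, a ubiquitin-like modifier, at least 156-fold. The detected probes of Oasl2 ranged from -8.30 to -4.30 on the log2 scale.

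Of 62 interferon-stimulated genes listed, 55 were on the array and 47 passed the filter, 25 of them through the wild-type arrays alone. In knockout cells 45 were lower and 2 were not called, at a median log2 difference of -4.34 beside 0.11 over all genes. With no detection filter 46 of the 55 were lower. The 2 uncalled genes were Irgm1 and Ifitm1, named after their values were seen. Irgm1 encodes an immunity-related GTPase and read 13.73 and 13.77 in knockout against 14.08 and 14.17 in wild-type cells (-0.37 ± 0.15, adjusted p = 0.078), but averaging its detected probes gave -3.17, so its probes disagree. Ifitm1, of a family of membrane proteins that block virus entry, differed by 0.53 ± 0.27 (adjusted p = 0.151), and was called higher without wild-type replicate 1 (0.90, adjusted p = 0.0435). Bst2, the tether that holds budding virions at the cell surface, was lower by 4.78 on the log2 scale (SE 0.16, adjusted p = 3.42e-06).

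The interferon-inducible GTPases, which attack membranes around intracellular pathogens, were lower as well. Of 17 listed, 14 were on the array and 13 passed the filter, 10 through the wild-type arrays alone. There 12 were lower and 1, Irgm1, was not called, and 12 of the 14 were lower with no filter. The median of the 13 was -6.11. Igtp read 4.98 and 4.62 in knockout and 12.49 and 12.57 in wild-type cells, at least 139-fold lower (adjusted p = 8.62e-07). Irgm2 was at least 141-fold lower, Gvin1 at least 97.3-fold and Mx2 at least 55.9-fold. Gbp2, a guanylate-binding protein gene, was detected in knockout cells at 6.26 and 6.05, against 13.67 and 13.87 in wild-type cells (-7.62 ± 0.17, adjusted p = 7.1e-07).

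**Figure D2:**
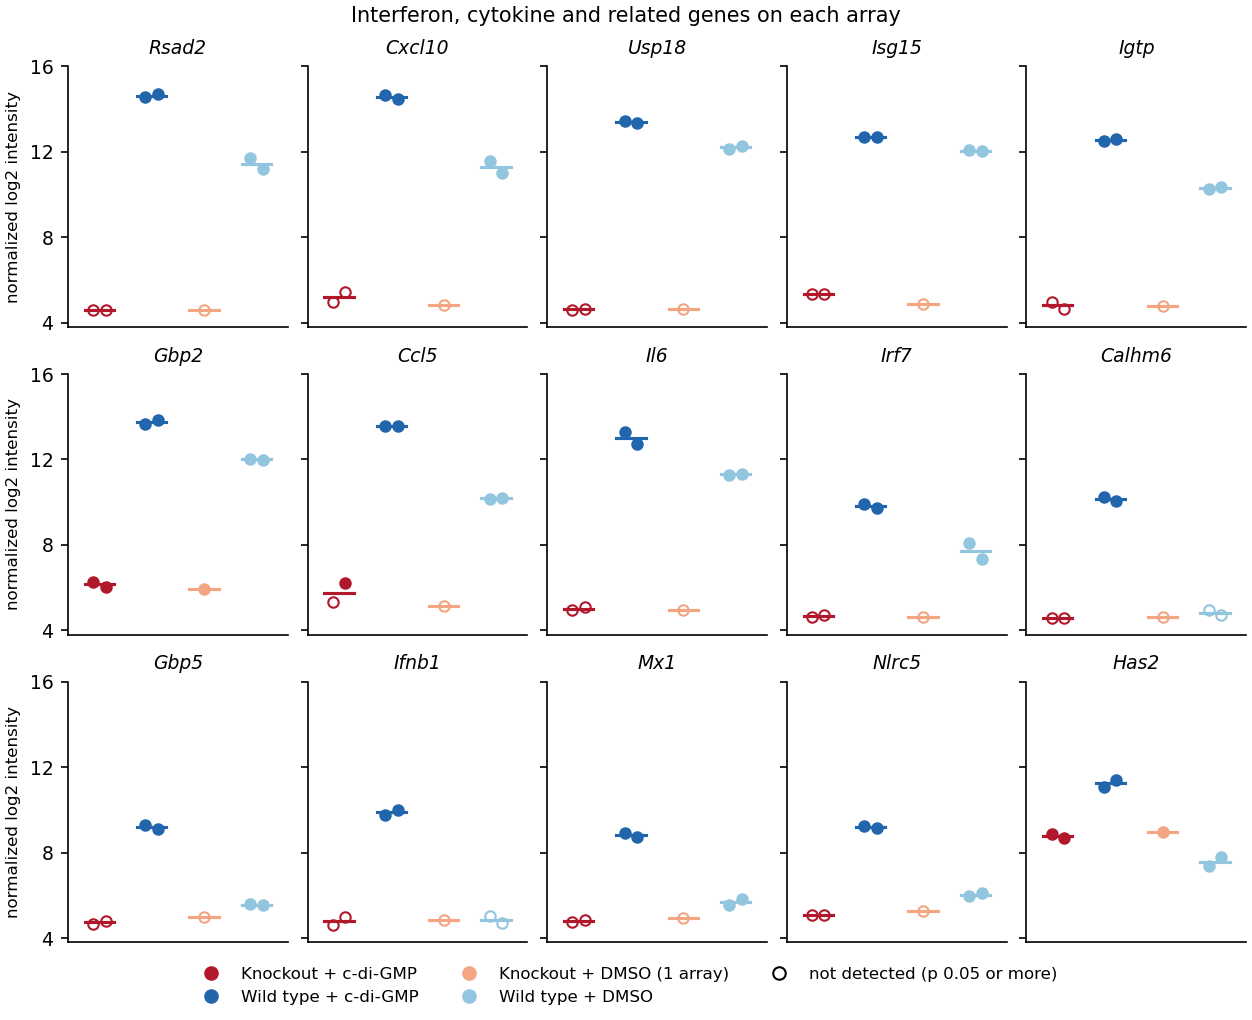
Normalized log2 intensity of 15 genes on each array (vertical axis), one panel per gene, with knockout and wild-type cells under c-di-GMP at the left and under DMSO at the right of each panel. Points are arrays, bars are group means, and open points were not detected. Knockout arrays sit at the bottom of most panels under both treatments, while Calhm6 and Ifnb1 were detected on the wild-type c-di-GMP arrays alone.

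The promoters of 5 of these genes are shown because each holds the letters of an ISRE, and the 5 span the interferon-stimulated, GTPase and chemokine genes described here. Each window runs from 250 bases before to 50 after the annotated start, from RefSeq on GRCm38.p6, and is written in the gene's own direction. Capitals mark GAAA, any 2 bases and GAAA, on either strand, so a match on the opposite strand reads TTTC, 2 bases and TTTC. Overlapping matches run together in Isg15. The windows are Rsad2 at chr12:26456403-26456702 (minus strand), Cxcl10 at chr5:92348840-92349139 (minus), Isg15 at chr4:156200769-156201068 (minus), Igtp at chr11:58199306-58199605 (plus) and Calhm6 at chr10:34127923-34128222 (minus).
Rsad2: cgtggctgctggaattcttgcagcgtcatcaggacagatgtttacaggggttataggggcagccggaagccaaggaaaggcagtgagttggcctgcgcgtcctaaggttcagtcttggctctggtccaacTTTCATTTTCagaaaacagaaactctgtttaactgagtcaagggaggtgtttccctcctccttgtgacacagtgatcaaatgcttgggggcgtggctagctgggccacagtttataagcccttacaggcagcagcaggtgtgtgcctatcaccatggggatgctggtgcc
Cxcl10: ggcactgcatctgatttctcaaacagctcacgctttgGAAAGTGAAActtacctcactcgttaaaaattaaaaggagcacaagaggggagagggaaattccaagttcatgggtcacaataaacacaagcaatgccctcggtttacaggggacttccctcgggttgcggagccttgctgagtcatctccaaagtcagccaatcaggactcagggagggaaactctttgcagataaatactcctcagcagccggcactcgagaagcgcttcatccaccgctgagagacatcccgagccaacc
Isg15: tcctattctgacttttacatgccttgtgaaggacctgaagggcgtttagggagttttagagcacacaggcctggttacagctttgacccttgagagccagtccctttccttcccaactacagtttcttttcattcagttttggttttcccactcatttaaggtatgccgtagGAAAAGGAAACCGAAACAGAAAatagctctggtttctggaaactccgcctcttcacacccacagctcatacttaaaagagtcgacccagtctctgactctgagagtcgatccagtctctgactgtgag
Igtp: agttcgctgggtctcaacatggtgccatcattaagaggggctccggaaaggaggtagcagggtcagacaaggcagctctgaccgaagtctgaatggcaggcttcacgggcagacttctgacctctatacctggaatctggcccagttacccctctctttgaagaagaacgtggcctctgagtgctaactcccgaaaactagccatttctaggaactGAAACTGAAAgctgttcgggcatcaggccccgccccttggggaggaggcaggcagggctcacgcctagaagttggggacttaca
Calhm6: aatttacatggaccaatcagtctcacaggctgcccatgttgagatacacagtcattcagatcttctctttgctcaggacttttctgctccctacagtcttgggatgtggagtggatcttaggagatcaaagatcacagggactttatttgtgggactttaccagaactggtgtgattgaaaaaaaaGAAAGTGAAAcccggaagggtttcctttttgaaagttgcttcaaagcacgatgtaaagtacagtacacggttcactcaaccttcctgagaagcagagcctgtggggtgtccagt
Isg15 held 3 overlapping matches and each of the other 4 held 1. Calhm6 had its match 64 bases before the start and Igtp 34 bases before it, while Cxcl10 had it 213 bases before.

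Across windows, the letters were found in 3.99% of 27025 genes. Among tested genes with a window they stood in 6.26% of 1486 lower genes, 2.83% of 1768 higher genes and 3.37% of 3589 genes not called. They stood in 14 of 35 interferon-stimulated genes with a window (40%) and in 7 of 8 GTPase genes (87.5%). These shares are descriptions of letters in a short window, and a match is not a bound site. The windows of Ifnb1, Oasl2, Cmpk2, Cd274 and Oasl1 held none, which says only that the letters are not in these 300 bases.

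Cytokine and chemokine genes followed. Of 37 listed, 35 were on the array and 26 passed, 9 through the wild-type arrays alone, with 22 lower, 2 higher and 2 not called, at a median of -2.02. With no filter 20 of the 35 were lower and 2 higher, at a median of -1.06. Il6, the acute-phase cytokine, read 4.93 and 5.11 in knockout and 13.29 and 12.73 in wild-type cells, at least 195-fold lower (adjusted p = 1.49e-06). Ccl5, which draws T cells and monocytes, read 5.31 and 6.22 in knockout and 13.55 and 13.57 in wild-type cells (-7.80 ± 0.29, adjusted p = 4.43e-06), and was detected on 1 of 2 knockout arrays. Ccl4 was at least 101-fold lower and Cxcl9 at least 98.3-fold. The detected probes of Ccl4 ranged from -7.47 to -4.63 on the log2 scale. Tnf, at 4.99 and 4.76 against 8.13 and 7.47 in wild-type cells, was at least 5.26-fold lower (adjusted p = 0.000661). Ccl2, the main monocyte attractant, was detected in both genotypes and lower by 2.33 on the log2 scale (SE 0.15, adjusted p = 4.52e-05). The 2 higher genes, named after their values were seen, were Ccl11, which attracts eosinophils (2.97 ± 0.23, adjusted p = 9.84e-05), and Il1rn, the secreted antagonist of interleukin 1 (3.11 ± 0.26, adjusted p = 0.000136).

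Among the ligands, Ifnb1, which encodes interferon beta, read 4.63 and 4.99 in knockout and 9.75 and 10.02 in wild-type cells. It was undetected in knockout cells and at least 22.3-fold lower (adjusted p = 6.37e-06). Ifna4 was at least 1.56-fold lower (adjusted p = 0.0004). Of 19 interferon ligand genes listed, 17 were on the array and 4 passed, 2 of them through the wild-type arrays alone and 1, Ifna1, through the knockout arrays alone. Ifna1 read 5.87 and 5.93 in knockout and 4.58 and 5.40 in wild-type cells, at least 1.36-fold higher (adjusted p = 0.0495), and lost the call under 8 of the alternatives. Ifna6 differed by -0.41 ± 0.30 (adjusted p = 0.301).

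Receptors and signalling components of interferon were lower too. Of 20 interferon receptor and signalling genes all were on the array and 18 passed, with 15 lower, 1 higher and 2 not called, at a median of -1.38. Stat2 was lower by 4.44 and Irf9 by 3.63 on the log2 scale (adjusted p = 9.82e-06 and 8.78e-06). Both genes encode members of the transcription complex that interferon activates, and both are themselves interferon-inducible. Irf7, the amplifier of interferon alpha genes, was at least 21.3-fold lower (adjusted p = 1.37e-05), and Irf1, at 10.52 and 10.42 against 13.01 and 13.39 in wild-type cells, was lower by 2.73 (SE 0.18, adjusted p = 5.27e-05).

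A list of STING, TRIF and nucleic acid sensing genes held 25, which reaches beyond the pathway to IRF3. Of these 23 were on the array and 22 passed, 5 through the wild-type arrays alone. There 14 were lower, 1 higher and 7 not called, at a median of -1.05. The RNA sensor genes were lower, Ifih1 (MDA5) by at least 17.5-fold and Dhx58 (LGP2) by at least 15.9-fold. Tlr3, the Toll-like receptor for double-stranded RNA that signals through TRIF, read 5.07 and 4.81 in knockout and 8.71 and 8.87 in wild-type cells, at least 10.5-fold lower (adjusted p = 1.38e-05). Tlr2, a receptor for bacterial lipoproteins, was lower by 3.27 on the log2 scale (SE 0.18, adjusted p = 2.25e-05), and Myd88, the other Toll-like receptor adaptor, by 2.55 (SE 0.18, adjusted p = 6.68e-05). Tbk1 was lower by 1.25 (SE 0.19, adjusted p = 0.00175), at 10.35 and 10.24 in knockout and 11.39 and 11.70 in wild-type cells. Irf3 differed by -0.45 ± 0.15 (adjusted p = 0.0426), a call lost under 10 of the alternatives. Under median scaling, with its median of 0.33 over all genes, 9 members of this list were lower and 2 higher.

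Antigen presentation genes, which cut, carry and display peptides for T cells, were lower. Of 29 listed, 24 were on the array and 16 passed, 7 through the wild-type arrays alone, and all 16 were lower at a median of -2.54. With no filter 16 of the 24 were lower, at a median of -1.74, and under median scaling 15. Psmb9, an immunoproteasome subunit, was at least 17.9-fold lower, and Nlrc5, which switches on MHC class I genes, at least 13.9-fold. The peptide transporter gene Tap2 was at least 15.4-fold lower and its partner Tap1 at least 6.88-fold. H2-Q7, a nonclassical class I gene, read 5.93 and 5.91 in knockout and 8.83 and 8.66 in wild-type cells (-2.83 ± 0.16, adjusted p = 2.25e-05). H2 genes are near-identical copies, so their probes may share signal. B2m, the common light chain, was lower by 1.16 on the log2 scale (SE 0.20, adjusted p = 0.00347).

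NF-kB genes and death genes were lower in part. Of 30 NF-kB subunits, inhibitors and targets, 29 were on the array and 26 passed, with 19 lower, 2 higher and 5 not called (median -1.51). Cd40, a costimulatory receptor, was at least 23.7-fold lower, and its 3 detected probes ranged from -5.10 to -1.49 on the log2 scale. Lcn2, an iron-trapping lipocalin, was lower by 4.90 on the log2 scale (SE 0.18), and Tnfaip3, which encodes the inhibitor A20, read 7.40 and 7.37 in knockout and 11.13 and 10.97 in wild-type cells (-3.66 ± 0.15, adjusted p = 6.89e-06). The kinase gene Map3k8 was lower by 3.19 (SE 0.18). The 2 higher genes, named after their values were seen, were Cyld, a deubiquitinase that restrains NF-kB (1.23 ± 0.20, adjusted p = 0.00275), and Nfkb2 (1.08 ± 0.35, adjusted p = 0.0399, a call lost under 8 of the alternatives). Of 24 cell death genes 24 passed, with 14 lower, 2 higher and 8 not called (median -0.80). The inflammatory caspase genes Casp1 and Casp4 led these, at least 13-fold lower for Casp1 and -3.86 ± 0.24 for Casp4 (adjusted p = 3.71e-06 and 4.11e-05). Mlkl, the executioner of necroptosis, differed by -2.75 ± 0.17, and Pmaip1, which encodes the p53 target NOXA, was at least 8.5-fold lower. Under median scaling 15 NF-kB genes and 9 death genes were lower.

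Complement genes, the secreted defence cascade and its regulators, were partly silent on these arrays. Of 21 listed, 20 were on the array and 10 passed, 5 through the wild-type arrays alone, with 9 lower and 1 not called (median -1.32). With no filter 8 of the 20 were lower, at a median of -0.37. Serping1, the C1 inhibitor, differed by -4.71 ± 0.30 (adjusted p = 4.49e-05). Cd59a, which blocks the membrane attack complex, read 7.82 and 7.74 in knockout and 11.63 and 11.37 in wild-type cells (-3.72 ± 0.16, adjusted p = 8.78e-06). C1qb was at least 3.3-fold lower, and Cfb at least 3.19-fold.

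**Figure D3:**
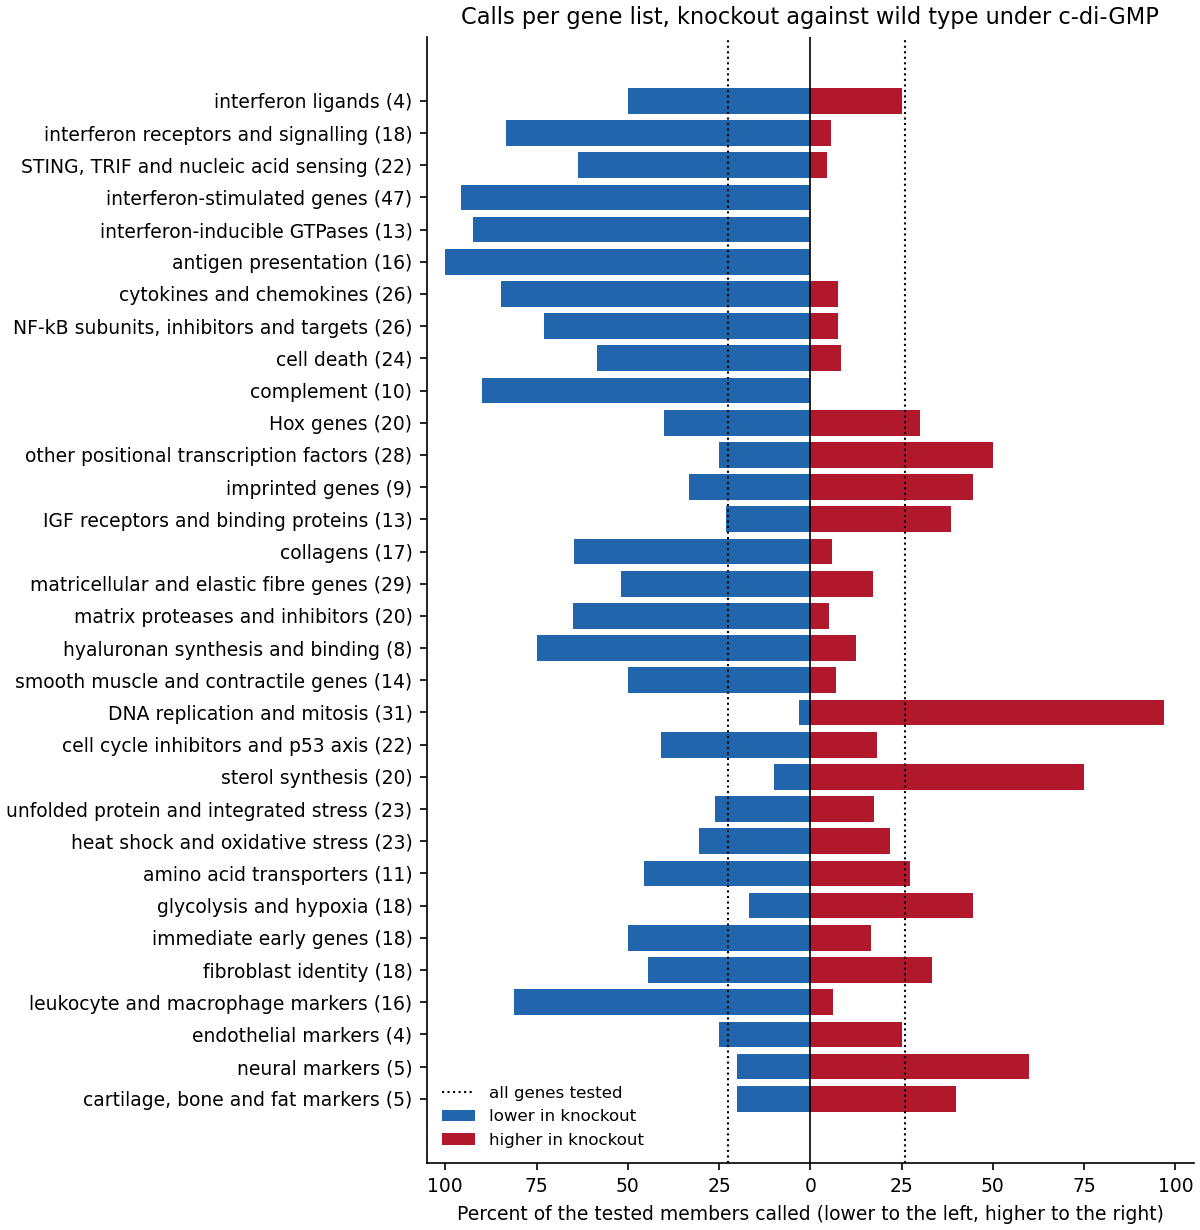
Percent of the tested members of each gene list that were lower (left, blue) or higher (right, red) in knockout cells under c-di-GMP, with the number tested in parentheses and dotted lines at the shares over all genes (22.4% and 26.0%). The interferon and inflammatory lists at the top extend to the left, and DNA replication and mitosis and sterol synthesis extend to the right; lists with under 4 tested members are not drawn.

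Markers of myeloid cells differed between the genotypes along with these lists. Lyz1, a lysozyme gene of macrophages and related cells, read 4.51 and 4.66 in knockout and 12.66 and 12.64 in wild-type cells, at least 151-fold lower. Lyz2 read 4.77 and 5.00 in knockout and 11.10 and 10.83 in wild-type cells, at least 47.1-fold lower. Lyz1 and Lyz2 are close copies whose probes may share signal. The 3 detected probes of Lyz2 ranged from -6.08 to -1.38 on the log2 scale. Adgre1, which encodes the macrophage surface protein F4/80, read 4.62 and 4.60 in knockout and 9.26 and 9.60 in wild-type cells, at least 16.2-fold lower (adjusted p = 5.25e-06). Cd52, Laptm5 and Fcer1g, further genes of blood cells, were at least 13.1-fold, 11.6-fold and 10.6-fold lower. Of 22 leukocyte and macrophage markers 20 were on the array and 16 passed, 11 through the wild-type arrays alone, with 13 lower, 1 higher and 2 not called. The log2 of their summed intensities was 9.54 to 9.57 in knockout and 13.48 to 13.58 in wild-type cells. Such a sum is weighted to the brightest genes, Lyz1 above all in wild-type cells. In knockout cells it includes undetected genes at background. Ptprc, the pan-leukocyte phosphatase CD45, and Itgam, Fcgr3 and Spi1 were each detected on at most 1 of the 4 arrays. Cd14, the endotoxin coreceptor, was higher in knockout cells (1.26 ± 0.16, adjusted p = 0.000758). The part of these markers in the interferon, cytokine and complement differences was not tested. Plac8, a cysteine-rich protein gene first described in placenta, read 5.49 and 6.23 in knockout and 14.28 and 13.83 in wild-type cells (-8.19 ± 0.28, adjusted p = 3.49e-06).

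Markers of other cell types were mostly below detection. Of 16 endothelial markers 4 passed, among them Flt1 (-3.25 ± 0.18) and Egfl7 (1.11 ± 0.20). Of 15 epithelial markers 2 passed: Cldn7 was higher by 1.31 (SE 0.39, adjusted p = 0.0291), a call lost under 4 of the alternatives, among them without wild-type replicate 1 or knockout replicate 1 under c-di-GMP, and Cdh1 differed by 0.62 ± 0.31 (adjusted p = 0.144), called without wild-type replicate 2 (0.97, adjusted p = 0.0401). Among 16 neural markers 5 passed. The growth cone gene Gap43 was higher by 3.29 (SE 0.17), Map2 by 3.03 (SE 0.41), and Stmn2 at least 1.82-fold, while the intermediate filament gene Nes was lower by 1.67 on the log2 scale. Of 17 skeletal muscle markers 2 passed, with Acta1 at -2.09 ± 0.31 (adjusted p = 0.0017) and Myog at 0.03 ± 0.37 (adjusted p = 0.953). Among 20 markers of cartilage, bone and fat 5 passed. The cartilage regulator Sox9 differed by 2.67 ± 0.22 and Lpl, lipoprotein lipase, by 2.95 ± 0.18, whereas Pparg, the fat cell regulator, was at least 3.69-fold lower.

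Proliferation genes ran the other way. Of 40 genes of DNA replication and mitosis 35 were on the array and 31 passed, each detected in both genotypes, and 30 were higher and 1 lower in knockout cells at a median of 2.08 beside 0.11 over all genes. With no filter 29 were higher and 1 lower, and under median scaling 30 were higher. Mcm5, a subunit of the replicative helicase, read 12.09 and 12.30 in knockout and 9.68 and 9.98 in wild-type cells (2.37 ± 0.18, adjusted p = 8.55e-05). Mcm2 differed by 2.36 ± 0.16 (adjusted p = 5.38e-05), and Cdt1, which loads that helicase, by 2.42 ± 0.23 (adjusted p = 0.000247). Mitotic genes were higher too. The kinase gene Aurka differed by 2.41 ± 0.17, the checkpoint gene Bub1b by 2.44 ± 0.16 and Birc5, which encodes survivin, by 2.48 ± 0.17 (adjusted p = 5.97e-05, 4.51e-05 and 5.35e-05). Cdc20, the activator of the anaphase-promoting complex, read 11.44 and 11.38 in knockout and 8.11 and 8.99 in wild-type cells (2.86 ± 0.28, adjusted p = 0.000283), and mitotic cyclin B1, Ccnb1, 11.03 and 11.05 against 8.34 and 8.72 (2.51 ± 0.18, adjusted p = 7.32e-05). The 1 lower gene was Ccne1, cyclin E1 (-1.17 ± 0.31, adjusted p = 0.0194), a call lost under 5 of the alternatives.

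Windows of 2 of these genes are shown because they hold the letters of an E2F site, the element through which the RB and E2F proteins time replication genes. Capitals mark TTTGGCGC or TTTCGCGC on either strand, with overlapping matches run together. They are from RefSeq on GRCm38.p6, Mcm5 at chr8:75109259-75109558 (plus strand) and Cdt1 at chr8:122567765-122568064 (plus strand).
Mcm5: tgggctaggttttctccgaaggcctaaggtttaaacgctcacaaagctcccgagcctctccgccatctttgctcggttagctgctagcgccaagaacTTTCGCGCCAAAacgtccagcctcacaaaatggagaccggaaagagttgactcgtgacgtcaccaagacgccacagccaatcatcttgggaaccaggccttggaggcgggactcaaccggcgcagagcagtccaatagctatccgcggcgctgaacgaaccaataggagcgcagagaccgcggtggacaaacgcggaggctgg
Cdt1: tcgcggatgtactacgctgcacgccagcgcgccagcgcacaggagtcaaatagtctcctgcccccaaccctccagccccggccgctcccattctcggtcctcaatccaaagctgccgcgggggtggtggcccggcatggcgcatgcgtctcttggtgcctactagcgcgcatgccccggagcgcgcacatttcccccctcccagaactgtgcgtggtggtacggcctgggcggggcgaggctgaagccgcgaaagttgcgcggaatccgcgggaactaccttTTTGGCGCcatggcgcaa
The letters stood in 0.929% of all windows, in 3.51% of 1768 higher genes, 1.21% of 1486 lower genes and 1.48% of 3589 genes not called, and in 7 of 27 replication and mitosis genes with a window (25.9%). In Mcm5 there were 2 overlapping matches on opposite strands, and in Cdt1 there was 1, within the bases after the start.

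The inhibitors of the cell cycle included 2 of the largest single differences. Cdkn2b, which encodes the CDK4 and CDK6 inhibitor p15, read 4.66 and 4.64 in knockout and 11.71 and 11.69 in wild-type cells, at least 78.5-fold lower (adjusted p = 7.1e-07). Its neighbour Cdkn2a, which encodes p16 and p19ARF, read 4.81 and 4.99 in knockout and 11.44 and 10.73 in wild-type cells, at least 51.2-fold lower (adjusted p = 8.78e-06). Both were undetected on both knockout arrays and detected on every wild-type array. The detected probes of Cdkn2a ranged from -6.18 to -3.42 on the log2 scale. Of 26 inhibitor and p53 axis genes all were on the array and 22 passed, 3 through the wild-type arrays alone and 1 through the knockout arrays alone. There 9 were lower, 4 higher and 9 not called (median -0.33). The highest difference in the list was 1.63, and the higher genes are not among those named here. Trp53 itself read 10.21 and 10.23 in knockout and 10.64 and 9.67 in wild-type cells (0.06 ± 0.30, adjusted p = 0.892). It was called higher without wild-type replicate 1 (0.54, adjusted p = 0.0391) and stood at -0.43 without wild-type replicate 2 (adjusted p = 0.0683). Its target Mdm2 differed by -0.34 ± 0.17 (adjusted p = 0.147), and by -0.50 without wild-type replicate 2 (adjusted p = 0.0461). Of other p53 targets, Cdkn1a (p21), described after its value was seen, was lower by 1.05 on the log2 scale (SE 0.15, adjusted p = 0.00164). Gdf15 was at least 3.27-fold lower, and Trp53inp1 was lower by 1.37 (SE 0.15).

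Hox genes, which mark position along the body, were called in both directions. Of 39 Hox genes 20 passed, 4 through the knockout arrays alone, with 8 lower (40%), 6 higher (30%) and 6 not called. Among all genes tested 22.4% were lower and 26.0% higher, so the higher share was near that of all genes. Hoxd8 read 10.55 and 10.42 in knockout and 4.69 and 4.77 in wild-type cells, at least 32.7-fold higher (adjusted p = 1.53e-06). Hoxd4 and Hoxd9 were at least 4.98-fold and at least 3.9-fold higher. Hoxb7 read 7.74 and 8.00 in knockout and 11.10 and 11.15 in wild-type cells (-3.25 ± 0.16, adjusted p = 1.53e-05), and Hoxb6 and Hoxb2 differed by -2.11 ± 0.17 and -2.06 ± 0.30. The 6 Hoxb genes called were lower. The 3 Hoxd genes called, those named above, were higher. Each of these 3 passed the filter through the knockout arrays alone, so the filter itself favoured that direction. Of the Hoxa genes 2 were lower and 2 higher, and 1 Hoxc gene was higher. The median of the list was -0.28, and 0.11 with no filter.

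Other positional transcription factors were also called in both directions. Of 54 listed, 52 were on the array and 28 passed, 7 through the knockout arrays alone. There 14 were higher (50%), 7 lower (25%) and 7 not called (median 0.65). Among all genes tested 26.0% were higher and 22.4% lower, so the lower share was near that of all genes. The 7 that passed through the knockout arrays alone were all among the higher genes. Over all 52 on the array, with no filter, the median was 0.03, with 14 higher and 6 lower. The 7 lower genes of the list lay between -1.98 and -0.66. The Iroquois homeobox gene Irx5 differed by 3.10 ± 0.19. Isl1, of heart, limb and motor neuron progenitors, was at least 5.06-fold higher, Foxf2 at least 4.19-fold and Irx2 at least 12.1-fold.

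Several fetal growth genes were higher in knockout cells. Igf2, the imprinted fetal growth factor, read 10.85 and 10.51 in knockout and 4.73 and 5.37 in wild-type cells, at least 37.4-fold higher (adjusted p = 1.36e-05). H19, the noncoding RNA gene beside it, was at least 3.87-fold higher (adjusted p = 0.00039). Dlk1, an imprinted inhibitor of fat cell formation, read 11.42 and 11.07 in knockout and 7.58 and 6.81 in wild-type cells (4.05 ± 0.29, adjusted p = 6.81e-05). The amino acid transporter gene Slc38a4 was at least 8.03-fold higher (adjusted p = 0.000104). Of 32 imprinted genes listed, 25 were on the array and 9 passed, 3 through the knockout arrays alone. There 4 were higher (44.4%), 3 lower (33.3%) and 2 not called, beside 26.0% higher and 22.4% lower over all genes. The 3 that passed through the knockout arrays alone were all among the 4 higher genes. The median of the 9 was 0.05, and the lowest difference was -0.83. Among IGF receptor and binding protein genes, 13 of 14 passed, 1 through the wild-type arrays alone and 2 through the knockout arrays alone. There 5 were higher (38.5%), 3 lower (23.1%) and 5 not called, beside 26.0% higher and 22.4% lower over all genes. Irs2, an insulin receptor substrate, was at least 8-fold higher and Igfbp5 at least 6.5-fold, while Igfbp2 was at least 5.16-fold lower and Igfbp3 differed by 2.70 ± 0.31.

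**Figure D4:**
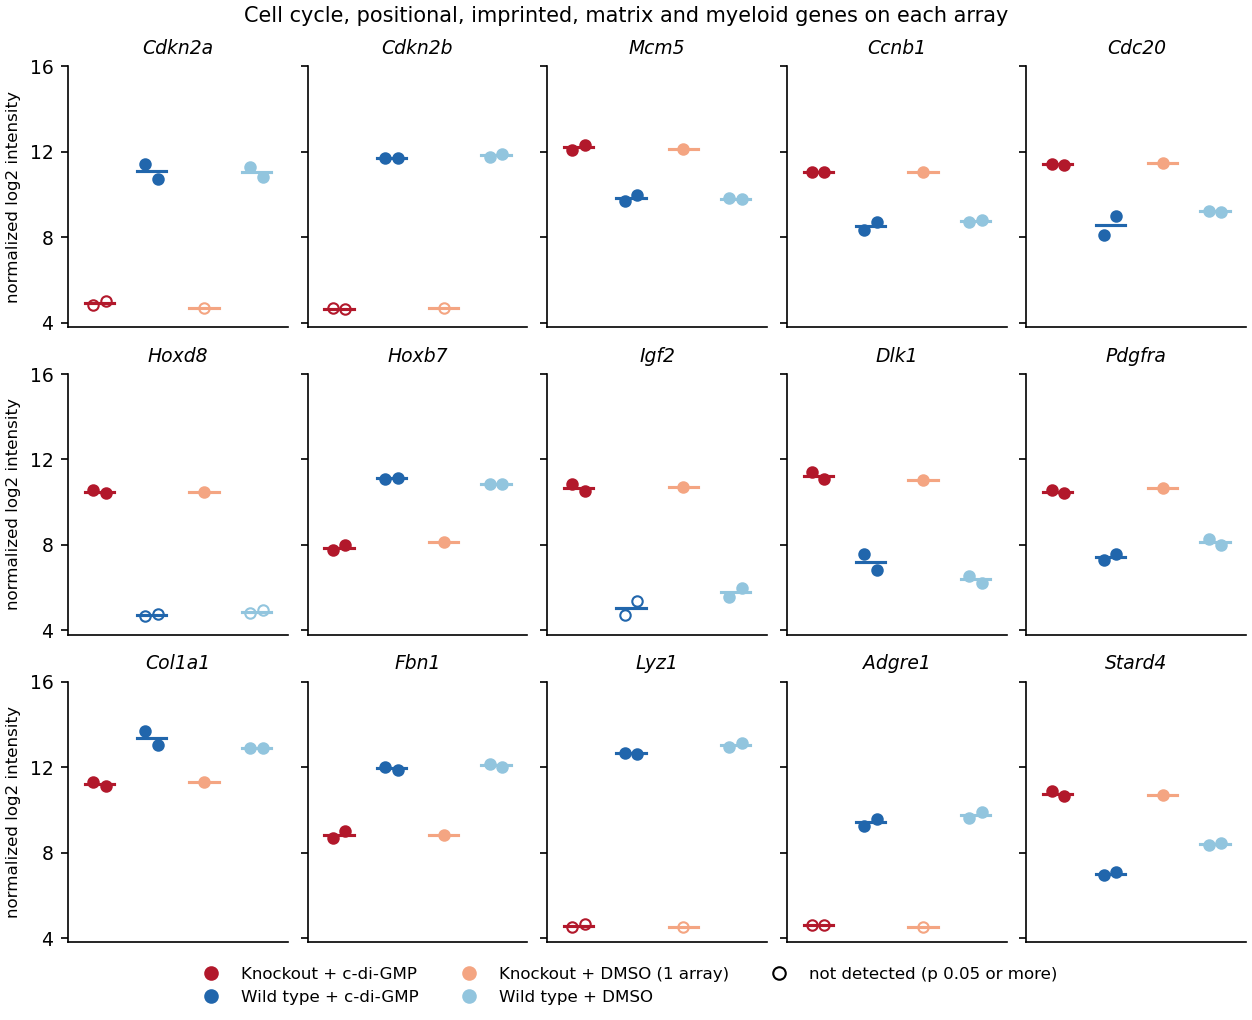
Normalized log2 intensity of 15 cell cycle, positional, imprinted, matrix, myeloid and sterol genes on each array (vertical axis), with knockout and wild-type cells under c-di-GMP at the left and under DMSO at the right of each panel. Points are arrays, bars are group means, and open points were not detected. In each panel the knockout DMSO array lies close to the knockout c-di-GMP arrays.

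Among the higher genes was Slc1a3, a glutamate transporter gene of glia and a member of the amino acid transporter list. It read 11.63 and 11.66 in knockout and 4.68 and 4.72 in wild-type cells, at least 73-fold higher (adjusted p = 1.68e-06). Crabp1, which binds retinoic acid, read 11.09 and 11.44 in knockout and 5.86 and 5.69 in wild-type cells (5.49 ± 0.18, adjusted p = 3.29e-06). Il1rl1, the receptor for interleukin 33, read 13.84 and 13.93 against 8.61 and 9.16 in wild-type cells (5.00 ± 0.21, adjusted p = 7.1e-06). Capn6, a calpain without protease activity, was at least 18.2-fold higher, Slc6a15, a neutral amino acid transporter gene, at least 11.8-fold, and Upp1, uridine phosphorylase, at least 11.9-fold. Cck, the peptide hormone cholecystokinin, differed by 4.73 ± 0.20, Kcnab1, a potassium channel subunit, by 4.42 ± 0.20, Adh7, an alcohol dehydrogenase, by 4.24 ± 0.31 and Klra4, a lectin-like receptor gene of natural killer cells, by 4.17 ± 0.20. LOC100038894 and LOC544988, names kept from the file, differed by 4.49 ± 0.16 and by at least 12.2-fold, and LOC100048346 was at least 168-fold lower.

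Most of the matrix genes that were called were lower. Of 27 collagens 25 were on the array and 17 passed, 1 through the knockout arrays alone, with 11 lower, 1 higher and 5 not called (median -1.51). With no filter the same counts were called among all 25, at a median of -0.38. The fibril-forming Col1a1 read 11.33 and 11.12 in knockout and 13.71 and 13.03 in wild-type cells, and Col3a1 differed by -2.44 ± 0.31. The basement membrane genes Col4a1 and Col4a2 were lower by 1.87 and 2.32 on the log2 scale (adjusted p = 0.000409 and 0.000112), and Col7a1, of anchoring fibrils, by 2.39. Of 40 matricellular and elastic fibre genes 29 passed, with 15 lower, 5 higher and 9 not called (median -0.53). Mfap5, of microfibrils, read 6.59 and 6.50 in knockout and 11.46 and 11.61 in wild-type cells (-4.99 ± 0.16, adjusted p = 2.63e-06). Fbn1, which encodes fibrillin, differed by -3.10 ± 0.18, and the thrombospondin genes Thbs1 and Thbs2 by -3.61 ± 0.25 and -2.79 ± 0.15. Spp1, osteopontin, ran the other way, at 13.72 and 13.71 in knockout and 11.49 and 11.23 in wild-type cells (2.35 ± 0.17, adjusted p = 6.67e-05).

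Among 29 matrix proteases and inhibitors 20 passed, 4 through the wild-type arrays alone, with 13 lower, 1 higher and 6 not called (median -1.18, and -0.69 with no filter). Mmp23 was at least 44.5-fold and the macrophage elastase gene Mmp12 at least 14-fold lower. Mmp2, a gelatinase, differed by -2.24 ± 0.17, and Timp3, of the family of its inhibitors, by -2.66 ± 0.18. Mmp13 stood at -4.31 ± 0.19, but its probes ranged from -4.31 to 0.38. Of 22 smooth muscle and contractile genes 14 passed, with 7 lower, 1 higher and 6 not called (median -0.75, and -0.43 with no filter). Ckb, creatine kinase, differed by -4.07 ± 0.16, enteric actin Actg2 by -1.92 ± 0.15 and Tagln by -1.79 ± 0.16, and Mylk was at least 2.47-fold lower. In hyaluronan synthesis and binding 8 of 17 passed, 3 through the wild-type arrays alone and 1 through the knockout arrays alone. There 6 were lower, 1 higher and 1 not called (median -1.21). With no filter 6 were lower and 2 higher, at a median of -0.28. Has2, the main hyaluronan synthase of fibroblasts, read 8.88 and 8.67 in knockout and 11.09 and 11.41 in wild-type cells (-2.47 ± 0.21, adjusted p = 0.000162). Hapln4, a hyaluronan link protein, was at least 6.24-fold higher.

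Sterol synthesis genes were higher. Of 26 listed, 22 were on the array and 20 passed, with 15 higher, 2 lower and 3 not called at a median of 1.18. With no filter 14 were higher and 2 lower. Stard4, a cholesterol carrier, read 10.87 and 10.66 in knockout and 6.94 and 7.09 in wild-type cells (3.75 ± 0.17, adjusted p = 8.78e-06). The synthesis enzyme genes Acat2 and Lss differed by 2.27 ± 0.15 and 1.80 ± 0.20 (adjusted p = 5.49e-05 and 0.00045). Srebf2, the master regulator of the pathway, was higher by 1.63 (SE 0.22, adjusted p = 0.00107).

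Stress, metabolic and immediate early genes were called in both directions. Over all genes tested 22.4% were lower and 26.0% higher. In heat shock and oxidative stress 23 of 25 passed, 4 through the wild-type arrays alone. There 7 were lower (30.4%), 5 higher (21.7%) and 11 not called. The small heat shock gene Hspb1 led these, at 4.94 and 5.06 in knockout and 11.18 and 11.13 in wild-type cells, at least 53.9-fold lower (adjusted p = 1.35e-06). The chaperone gene Hsph1 was higher by 1.65 (SE 0.16). Slc7a11, the cystine transporter, was at least 7.37-fold lower and Gpx3, glutathione peroxidase, at least 3.78-fold. Of unfolded protein and integrated stress genes 23 of 27 passed, with 6 lower (26.1%), 4 higher (17.4%) and 13 not called. These shares do not set the list apart from all genes. There Trib3, Ppp1r15a and Ddit3 differed by -1.92 ± 0.17, -1.96 ± 0.20 and -1.07 ± 0.18, and Psat1, of serine synthesis, by 1.17 ± 0.18. Of amino acid transporters 11 of 19 passed, 2 through the knockout arrays alone, with 5 lower, 3 higher and 3 not called. The arginine transporter Slc7a2 differed by -2.75 ± 0.16 and the glycine transporter Slc6a9 by -1.31 ± 0.16. In glycolysis and hypoxia 18 of 25 passed, with 8 higher, 3 lower and 7 not called: Eno1, enolase, stood at 1.46 ± 0.22 and Ddit4, an inhibitor of mTOR signalling, at 1.81 ± 0.17, while Vegfa stood at -1.08 ± 0.16 and P4ha1 at -1.10 ± 0.16. Of immediate early genes 18 of 28 passed, with 9 lower, 3 higher and 6 not called. Klf4 read 6.83 and 6.72 in knockout and 11.08 and 10.20 in wild-type cells (-3.86 ± 0.28), and Fos, Zfp36 and Klf2 differed by -2.41 ± 0.21, -2.26 ± 0.17 and -1.28 ± 0.17. Adjusted p in this paragraph lay between 1.35e-06 and 0.00268.

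The same genotypes were also compared under DMSO, in the same fit. The 2 contrasts set different arrays against each other, but share the normalization and 1 estimate of the spread over all 7 arrays. There 2718 genes (30.7%) were called, 1351 lower (15.3%) and 1367 higher (15.5%) in knockout cells. Across the 8842 genes the genotype differences under c-di-GMP and under DMSO correlated at 0.882, a description across genes, which are not independent replicates. Of the 1985 genes lower under c-di-GMP, 1170 were also called lower under DMSO and 8 called higher. Of the 2295 higher genes 1187 were also called higher and 1 lower. Under DMSO Lyz1 read 4.53 in knockout and 12.95 and 13.14 in wild-type cells, and Cdkn2b 4.68 in knockout and 11.77 and 11.90 in wild-type cells. Isg15 read 4.85 in knockout and 12.06 and 12.03 in wild-type cells there. These 3 genes were undetected on the knockout array, as they were under c-di-GMP. Hoxd8 read 10.46 in knockout and 4.79 and 4.96 in wild-type cells under DMSO, and Slc1a3 11.78 in knockout and 4.53 and 5.01 in wild-type cells, both undetected on the wild-type arrays. Of the interferon-stimulated list 39 genes were lower under both treatments, at a median of -3.11 under DMSO, and of the replication list 29 were higher under both.

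Whether a genotype difference was another size under c-di-GMP was tested as a difference of differences, which rests on 1 knockout DMSO array. It was called for 80 genes (0.905%), 77 negative (0.871%) and 3 positive (0.0339%), with 1078 at an unadjusted p under 0.05. Of 75 genes negative here and lower in knockout cells under c-di-GMP, 40 were also called lower under DMSO, 32 were not called there and 3 were called higher. In knockout cells on their own, limma called 0 genes between c-di-GMP and DMSO, with 214 at an unadjusted p under 0.05. Of the 77 negative genes 47 were undetected on both knockout c-di-GMP arrays, so the knockout side of their values is background. The count was 4 with all 8 arrays, 1 and 3 without knockout replicate 1 or 2 under c-di-GMP, and 18 without wild-type replicate 1 under c-di-GMP.

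Interferon-induced genes were among those called, and many read at background in knockout cells, so their fitted differences have no exact size. Calhm6, an interferon-induced membrane protein gene, read 4.60 and 4.57 in knockout and 10.24 and 10.07 in wild-type cells under c-di-GMP, against 4.61 in knockout and 4.95 and 4.71 in wild-type cells under DMSO. It was at least 26.9-fold lower in knockout cells under c-di-GMP, and the fitted difference between treatments was -5.35 ± 0.26 (adjusted p = 0.00203). Ifnb1 read 4.85 in knockout and 5.03 and 4.71 in wild-type cells under DMSO, with a fitted difference between treatments of -5.05 ± 0.33 (adjusted p = 0.00436). Both genes were undetected on every array other than the wild-type c-di-GMP arrays, so no genotype difference is given under DMSO. Cd274, the gene of the T cell inhibitor PD-L1, read 5.35 and 5.34 in knockout and 12.65 and 12.39 in wild-type cells under c-di-GMP, at least 139-fold lower. Under DMSO it was detected in both genotypes and differed by -2.90 ± 0.24. Oasl1, which restrains translation of Irf7, read 4.60 and 4.61 in knockout and 11.41 and 11.16 in wild-type cells under c-di-GMP, at least 58.9-fold lower. Under DMSO it read 4.45 in knockout and 7.25 and 6.82 in wild-type cells. The 3 detected probes of Oasl1 ranged from -6.68 to -2.86 under c-di-GMP. Gbp5, Nlrc5 and Mx1, undetected on all knockout arrays used, had fitted differences between treatments of -3.87 ± 0.25, -3.34 ± 0.24 and -3.29 ± 0.28 (adjusted p = 0.00436, 0.00527 and 0.0108).

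By list, the members called negative in that test were 13 of 47 interferon-stimulated genes, 8 of 13 GTPases, 4 of 22 sensing genes and 3 of 26 cytokines and chemokines. The other lists with a call had 1 or 2 members each. In 23 of the 34 lists, which hold 348 tested genes, limma called 0, with 49 at an unadjusted p under 0.05. Lists can share members, as the interferon-stimulated genes and GTPases share Irgm1, so their counts are not of separate genes. Il15, an interleukin for natural killer cells, was among the cytokines called negative (-3.10 ± 0.15 under c-di-GMP and -0.45 under DMSO). The ISRE letters stood in 14 of 53 negative genes with a window (26.4%).

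Has2 had opposite genotype differences. Under c-di-GMP it was lower in knockout cells, as given above, whereas under DMSO it read 8.97 in knockout and 7.36 and 7.78 in wild-type cells, higher by 1.40 (SE 0.26, adjusted p = 0.00788). The difference between treatments was -3.87 ± 0.34 (adjusted p = 0.011). Ptx3, which encodes a pentraxin, stood at -1.48 ± 0.23 under c-di-GMP (adjusted p = 0.00227) and 0.91 ± 0.29 under DMSO, where it was not called. Ddit4 was a positive gene of this test. It read 9.12 and 9.06 in knockout and 7.14 and 7.40 in wild-type cells under c-di-GMP, against 9.17 in knockout and 9.56 and 9.42 in wild-type cells under DMSO (2.13 ± 0.27, adjusted p = 0.027).

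**Figure D5:**
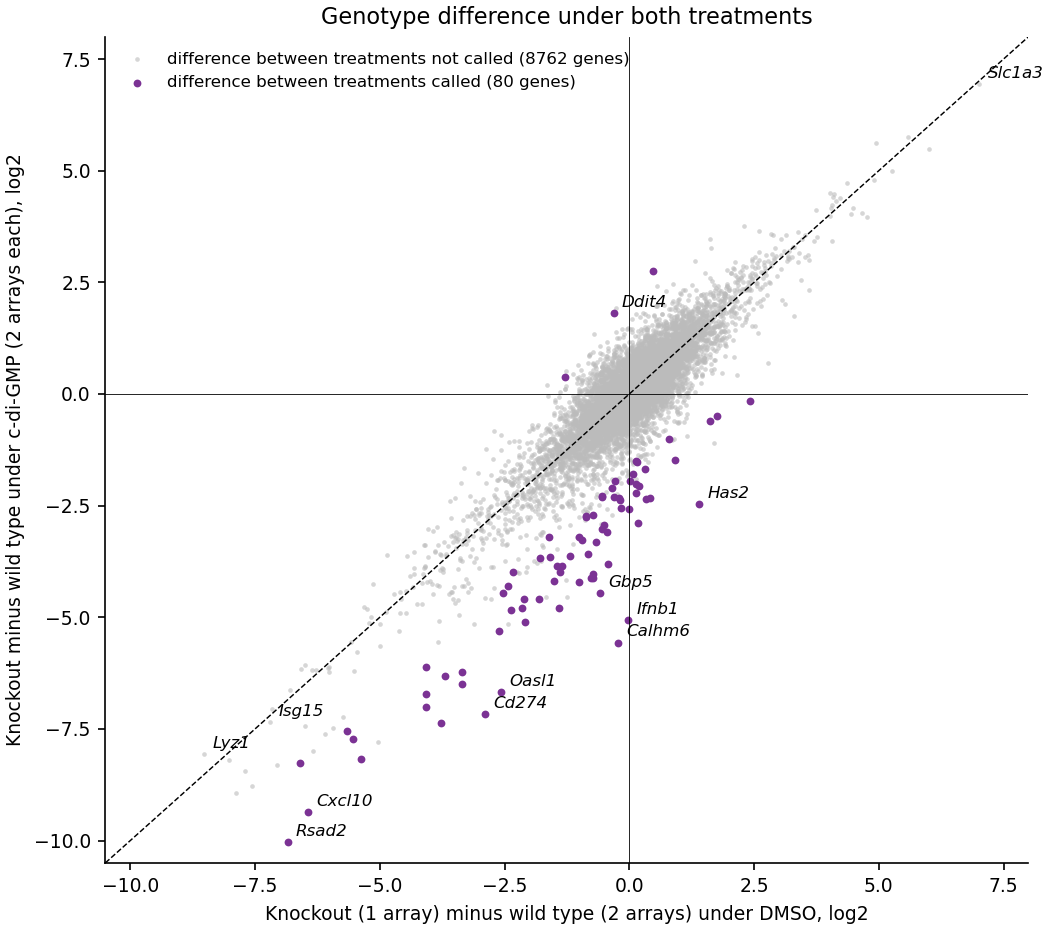
Knockout minus wild-type log2 difference of every tested gene under c-di-GMP (vertical axis, 2 arrays each) against the same under DMSO (horizontal axis, 1 knockout and 2 wild-type arrays), with the dashed line at equality. Grey points lie along the line, and the 80 purple genes called for the difference between treatments lie mostly below it, with Calhm6 and Ifnb1 near 0 on the horizontal axis and Ddit4 above the line.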

How the data were processed

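RNA of 8 samples, 2 per genotype and treatment, was measured on 8 Illumina bead arrays. The authors deposited probe intensity values that were not normalized, with a detection p-value per probe and array, per the file headers. A second deposited table held their normalized intensity values on a linear scale, which served as an alternative. GenomeStudio 2010.2 was used, per the submitters' processing notes. Background handling before export, the method of normalization and the basis of the detection p-values are not given in the sources used here.

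Deposited signals of 7 arrays (all but knockout DMSO replicate 2) were background-corrected from the detection p-values, given an offset of 16, quantile normalized and log2 transformed, by the neqc function of limma (3.58.1; R 4.3.3). A gene was tested if its detection p was under 0.05 on 2 or more of the 4 c-di-GMP arrays, through the probe with the highest mean there, which left 8842 genes. One mean per group was fitted (lmFit and eBayes, 3 residual and 3.86 prior degrees of freedom), and tests were two-sided. A gene was called at a Benjamini-Hochberg adjusted p under 0.05 over all genes. The contrasts were knockout minus wild type under c-di-GMP, the same under DMSO, and the difference between them. The script was tested on simulated data. The number of arrays limits the precision.

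Of 25697 probes 20733 matched a current symbol in RefSeq (GRCm38.p6) exactly, 122 by gene number and 3872 by synonym; 939 kept the file's name and 31 held a date in place of a name. Genes are named by a rule: 8 chosen interferon and cytokine genes with Ticam1 among them, the 15 lower and 15 higher genes with the largest differences, up to 4 called members of each of 34 lists by smallest p (up to 2 uncalled where fewer than 2 were called), the 8 of smallest p for the difference between treatments, and the 6 per side with the largest differences of 1 sign under both treatments. It gave 151 genes, and 44 more were described after their values were seen; some of these genes are not reported here. Groups, members and lists were chosen with earlier results of these data known. Alternatives were median scaling, no background correction, the authors' normalized table with values under 16 set to 16, no detection filter, detection on both arrays of a group, the 4 c-di-GMP arrays alone, all 8 arrays, the mean of all detected probes, the replicate number as a block, and each array left out. Whether samples of 1 replicate number deviate together was checked by correlation across genes between groups (0.07, -0.03 and 0.04), so the number was not taken to pair them.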

Additional observations from a re-analysis of the deposited data

Results flagged for a closer look

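For 28 of the genes named above, the difference between knockout and wild-type cells was another size under c-di-GMP than under DMSO, by limma's test of the difference of differences at an adjusted p under 0.05. Values are the log2 difference under c-di-GMP minus that under DMSO, so a negative value means that knockout cells stood lower relative to wild-type cells with c-di-GMP. Where a gene was undetected in a genotype, as many here were in knockout cells, the value is taken against background and is no exact size. All rest on 1 knockout DMSO array, and a share of 0.905% of all genes was called in this test.

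Among interferon-stimulated and related genes it was -5.35 for Calhm6, -5.05 for Ifnb1, -4.10 for Oasl1, -3.19 for Rsad2 and -2.81 for Cmpk2. The signalling gene Irf1 stood at -1.86. The antiviral and pathogen-directed GTPase genes Gbp5, Mx1, Mx2, Igtp and Irgm2 stood at -3.87, -3.29, -3.14, -2.19 and -1.89. Of the sensors, Ifih1, Tlr3 and Tlr2 had -2.64, -2.51 and -2.31. The antigen presentation genes Nlrc5 and Psmb9 had -3.34 and -2.47. The chemokine genes Cxcl9 and Cxcl10 had -3.58 and -2.91, and Il15 had -2.64.

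Surface receptor and NF-kB genes had the same sign. Cd274 stood at -4.28, Cd40 at -3.01 and Tnfaip3 at -1.87. The inflammatory caspase genes Casp4 and Casp1 stood at -2.41 and -1.92. Has2 and Ptx3, from the list of hyaluronan synthesis and binding, had -3.87 and -2.39. LOC100048346, a name kept from the file, had -1.67, and Ddit4 was the one positive gene here, at 2.13. Groups held at most 2 arrays, so no sample could be tested for standing apart from its group.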

How the results depend on the processing

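Of 186 called genes named here, 157 kept their call under every alternative that tested them, and 28 lost it with all 8 arrays. The 4280 genes called between genotypes under c-di-GMP became 1379 with all 8 arrays and 2833 to 4455 with 1 array left out, lowest without knockout replicate 1 or 2 under c-di-GMP (2833 and 2835). A group left with 1 array is assumed to vary like the others. The 2718 calls under DMSO became 1661 under median scaling, 1227 with all 8 arrays and 1602 to 3363 with 1 array left out. The 80 calls for the difference between treatments became 31 under median scaling, 261 without background correction, 260 in the authors' normalized table, 38 without a detection filter, 4 with all 8 arrays, and 1 to 117 with 1 array left out (8 without wild-type DMSO replicate 2, 29 without replicate 1). With the replicate number as a block the 3 counts were 4164, 2344 and 18; the numbers do not pair the samples here. Uncalled values changed sign for Myog (-0.0066 under median scaling, -0.47 to 0.51 with 1 array left out), Ticam1 (-0.39 to 0.056 likewise), Trp53 (-0.43 to 0.54 likewise) and Xist (0.062 under median scaling). List medians changed sign for Hox genes (0.11, no filter), imprinted genes (-0.07 and -0.01 without knockout replicate 1 or wild-type replicate 2), amino acid transporters (-0.23 without wild-type replicate 1), glycolysis (-0.11, no filter), endothelial markers (-0.03, no filter) and cartilage, bone and fat markers (0.06 to 1.01 under 4 alternatives). The cause was not tested. The single knockout DMSO array cannot be left out of the last 2 comparisons. Probes near background limit what low genes can show, hence the bounds.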

Other observations

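The test of the difference between treatments called further genes, all described here after their values were seen. Lmo2, a transcription cofactor gene of blood and vessel development, read 4.66 and 4.59 in knockout and 8.52 and 8.72 in wild-type cells under c-di-GMP, against 4.52 in knockout and 5.90 and 5.92 in wild-type cells under DMSO (-2.60 ± 0.25, adjusted p = 0.0147), and was undetected on the knockout arrays. Hdc, which makes histamine, read 4.60 and 5.50 in knockout and 9.12 and 9.38 in wild-type cells under c-di-GMP, against 5.05 in knockout and 6.28 and 5.83 in wild-type cells under DMSO (-3.20 ± 0.50, adjusted p = 0.0481), and was detected on 1 knockout array. Cd69, an early activation marker of lymphocytes, was undetected on the knockout arrays and at least 13-fold lower under c-di-GMP. It read 9.09 and 9.13 in wild-type cells there and 6.77 and 6.47 in wild-type cells under DMSO. The next 3 genes were detected on the wild-type c-di-GMP arrays and undetected on the wild-type DMSO and knockout c-di-GMP arrays, so no DMSO difference is given. Under c-di-GMP Nos2, the inducible nitric oxide synthase gene, was at least 2.47-fold lower in knockout cells, Il15ra, the receptor that presents interleukin 15, at least 6.37-fold, and Batf2 at least 3.98-fold. Socs1, which damps cytokine receptor signalling, differed by -3.01 under c-di-GMP and -0.56 under DMSO.

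Besides Ddit4, the positive genes of that test were Klhl21 and Rasl11a. Klhl21, a ubiquitin ligase adaptor gene, read 7.81 and 8.01 in knockout and 7.49 and 7.56 in wild-type cells under c-di-GMP, against 7.86 in knockout and 9.17 and 9.12 in wild-type cells under DMSO (1.67 ± 0.25, adjusted p = 0.0447). Rasl11a, a small GTPase gene, read 7.42 and 7.75 in knockout and 4.61 and 5.04 in wild-type cells under c-di-GMP, against 8.52 in knockout and 8.19 and 7.89 in wild-type cells under DMSO (2.28 ± 0.35, adjusted p = 0.0465), and was undetected in wild-type cells under c-di-GMP.

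The neighbours of genes with large differences were examined too. Mtap, which lies beside Cdkn2a and Cdkn2b and salvages methionine, read 11.05 and 10.96 in knockout and 9.87 and 9.59 in wild-type cells (1.27 ± 0.17, adjusted p = 0.000997). Klhl9, farther along the same region, was higher by 0.97. Among the 24 tested genes nearest to Ticam1, 12 on each side, 2 were lower and 8 higher in knockout cells, 41.7% called beside 48.4% of all genes.

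Calls were not spread evenly over the chromosomes of the 8497 genes with a position in RefSeq. On chromosome 8, 36.9% of 450 genes were higher and 14.7% lower in knockout cells, at a median difference of 0.36. On chromosome 12, 14.3% of 286 genes were higher and 32.2% lower, and on chromosome 14, 16.7% of 276 genes were higher and 31.9% lower. Neighbouring genes are not independent, and no test was made.

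Genes of the sex chromosomes were examined too, and 1 of the 3 given here kept its call under every alternative. Eif2s3y, a translation factor gene of the Y chromosome, read 4.60 and 4.54 in knockout and 7.53 and 7.61 in wild-type cells, undetected in knockout cells and at least 4.49-fold lower (adjusted p = 2.89e-05). Ddx3y, a helicase gene of the same chromosome, was detected in both genotypes, at 9.30 and 9.42 in knockout and 9.85 and 9.99 in wild-type cells (-0.56 ± 0.18, adjusted p = 0.0401), a call lost under 8 of the alternatives. Xist, the RNA that silences an X chromosome, read 7.38 and 7.34 in knockout and 7.59 and 7.86 in wild-type cells (-0.36 ± 0.16, adjusted p = 0.113), and its probes ranged from -0.36 to 0.17. More widely, 90 of the 1140 called genes with more than 1 detected probe had probes of opposite sign.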
